A study of Mus musculus with 8 samples.

Results

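The receptors for interleukin 5 (IL-5), interleukin 3 (IL-3), granulocyte-macrophage colony-stimulating factor (GM-CSF), granulocyte colony-stimulating factor (G-CSF) and macrophage colony-stimulating factor (M-CSF) were compared between mouse cells labelled as eosinophils of the bone marrow and of the small intestine. The genes were taken by symbol from the deposited expression table, and all 7 were found among its 38392 genes: the alpha chains Il5ra, Il3ra and Csf2ra, the beta chains Csf2rb and Csf2rb2, and the single-chain receptors Csf3r and Csf1r. RNA was sequenced from cells sorted from 4 female mice per tissue, labelled as strain C57/BL6 and genotype wildtype, with no treatment in either group; the age of the animals was not in the labels. Bone marrow cells were sorted as CD11b+, Ly6G-, Ly6C-, SiglecF+ and SSChi, and intestinal cells as CD11b+, MHC-II-, SiglecF+ and SSChi. Intestinal cells also went through removal of the epithelium, warm enzymatic digestion and enrichment on CD11b beads, so that tissue and handling cannot be told apart.

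IL-5, IL-3 and GM-CSF are cytokines that drive the formation, survival and activation of eosinophils. Each binds its own alpha chain, which pairs with a common beta chain that carries the signal through the kinase JAK2 to STAT5 and to the Ras and PI3 kinase pathways. The mouse has a further beta chain, the product of Csf2rb2, which works with the IL-3 receptor only. Csf3r is the G-CSF receptor of the neutrophil lineage. Csf1r is a receptor tyrosine kinase for M-CSF and interleukin 34, and is best known from monocytes and macrophages.

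The libraries held 11508002 to 21289164 reads assigned to genes. Library names follow the deposited columns, which gave the tissue but not the single sample (BM_1, BM_3, BM_4 and BM_5; SI_6, SI_7, SI_10 and SI_11). Of 9 eosinophil markers, 3 were higher in the small intestine, 5 were lower and 1 was not called, and together they took 0.0210 to 0.0372% of the reads in bone marrow and 0.209 to 0.260% in the small intestine. By normalised count (reads divided by the size factor of the library), Prg2, a granule protein, and Siglecf were the most abundant of them in bone marrow, and Alox15 and Ccr3, the eotaxin receptor, in the small intestine. The 12 neutrophil precursor markers took 3.88 to 4.60% of the reads in bone marrow and 0.00520 to 0.00719% in the small intestine, with 11 lower and 1 higher in the small intestine. The markers of the bone marrow libraries thus went against their label: Mpo and S100a9, genes of neutrophil precursors and neutrophils, were at means of 149860 and 96527 normalised counts there, and Ly6c2, which encodes an antigen that the gate selected against, at 8268, while Prg2 was at 1831, Siglecf at 580 and Ccr3 at 70.9. Marrow libraries below are those labelled bone marrow eosinophils, and every tissue difference is between cells sorted under these labels. Markers of epithelium (10 of 10), pancreatic acinar cells (5 of 5) and fibroblasts and endothelium (7 of 7) were higher in the small intestine. Genes of the dissociation response (12 of 12) were higher there too. SI_6 held the most epithelial reads at 0.342%, above its eosinophil marker share of 0.209%. SI_7 held the most pancreatic reads at 0.261%, against an eosinophil marker share of 0.256%. In SI_10 and SI_11 the eosinophil marker share was above the epithelial and pancreatic shares. H2-Aa, a gene of the MHC-II that the intestinal gate selected against, was at a mean of 1677 normalised counts there. Siglecf was at 3076 and Ccr3 at 16351 in the same libraries. Of the remaining lists, 10 of 13 monocyte, macrophage and dendritic markers were higher and 1 lower, 1 of 8 basophil and mast cell markers higher and 4 lower, 1 of 7 B and plasma cell markers higher and 2 lower, 3 of 7 T cell and innate lymphoid markers higher and 0 lower, 0 of 5 erythroid markers higher and 4 lower, and 4 of 6 progenitor markers higher and 1 lower. Over all 38392 genes, 22.0% were called higher and 12.9% lower. No marker in any list was at 0 in all 4 libraries of a tissue. In bulk samples, fewer cells of a type and less RNA per cell cannot be told apart.

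**Figure D1:**
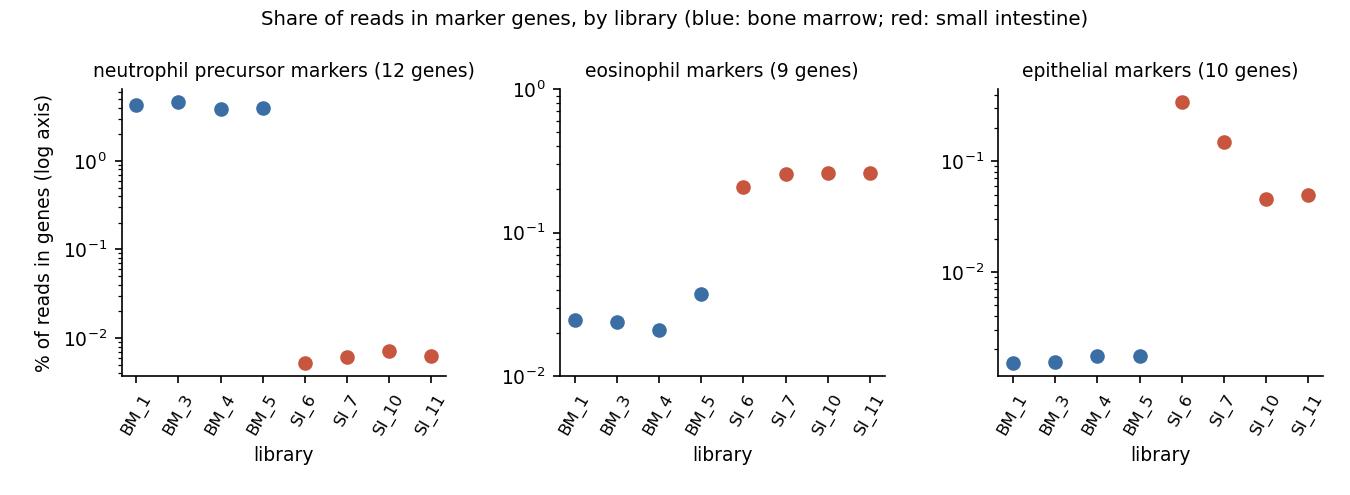
Share of the reads assigned to genes (%, log axis) that fell in 3 marker lists, by library, with bone marrow in blue and the small intestine in red. The neutrophil precursor share lies between 3.88 and 4.60% in the bone marrow libraries and at or below 0.00719% in the small intestine, and the epithelial share is highest in SI_6.

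All 7 receptor genes differed between the tissues, 6 higher and 1 lower in the small intestine, and the 4 libraries of one tissue did not overlap with the 4 of the other for any of them. Il5ra and Csf2rb2 had the largest differences, Csf2rb, Csf1r, Il3ra and Csf2ra followed, and Csf3r was the gene with the lower level. The comparison used limma on the deposited variance-stabilised values, which are close to log2 of the normalised read count for well-covered genes; a call is an adjusted p-value under 0.05 after Benjamini-Hochberg adjustment over 38392 genes. Against this background, 22.0% of all genes were called higher and 12.9% lower, and 20.3% were higher and 13.9% lower without overlap. All 7 receptor genes had a mean of at least 10 reads, and calls were more common among such genes. In a fit of these 16215 genes only, 6362 were called higher and 5462 lower. The tissue difference (small intestine minus bone marrow) had a median of 2.36 over the 7 genes and of 0.37 over all genes. The split of calls over all genes depended on the scaling: 8465 genes were higher and 4937 lower as deposited, 4285 higher and 10216 lower after centring each library on its median over all genes, and 5954 higher and 7032 lower after quantile normalisation. These scalings moved the median difference of all genes to -0.53 and -0.03.

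**Figure D2:**
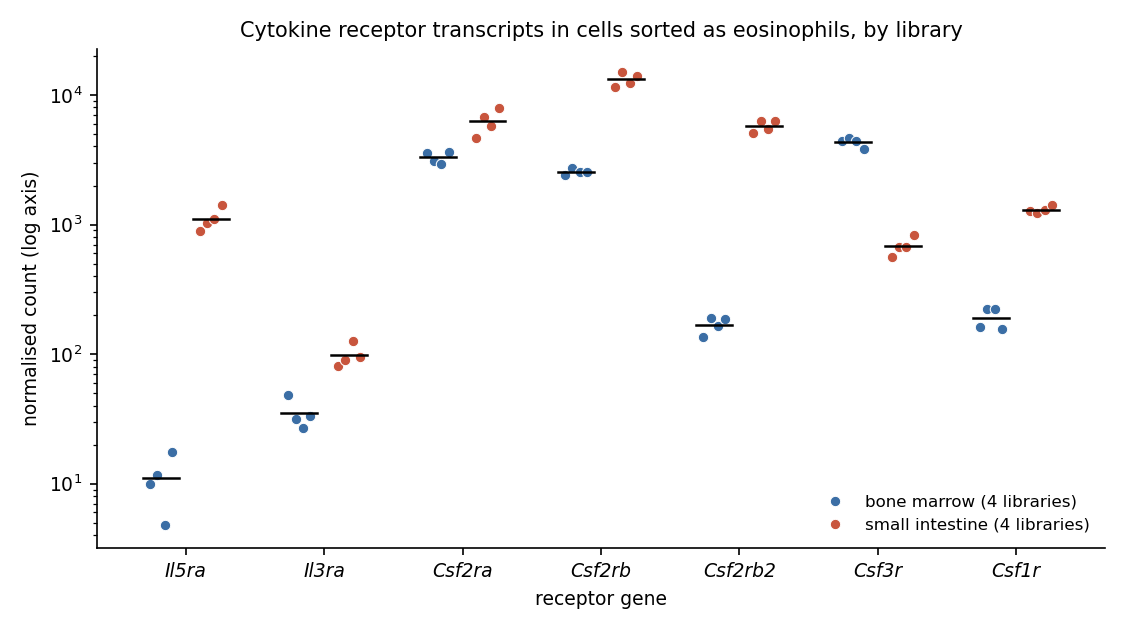
Normalised read count (log axis) of each receptor gene in the 4 bone marrow libraries (blue) and the 4 small intestine libraries (red); each point is a library and each bar the group mean. No gene has overlapping groups, and Csf3r is the gene whose bone marrow libraries lie above those of the small intestine.

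Il5ra encodes the alpha chain that binds IL-5, the cytokine most specific to eosinophils. It lies at chr6:106710357-106749037 on the minus strand of GRCm38. Its normalised read counts were 9.96 in BM_1, 11.7 in BM_3, 4.78 in BM_4 and 17.7 in BM_5, and 894 in SI_6, 1019 in SI_7, 1098 in SI_10 and 1415 in SI_11. Every small intestine library held far more Il5ra than any bone marrow library, where the level rested on 5 to 19 reads per library. The ratio of the means was 100.3 (11 ± 5.31 against 1107 ± 222, SD, n = 4 each). On the deposited log2 scale the difference was 6.31 ± 0.31 (SE, 95% interval 5.60 to 7.03; adjusted p = 2.79e-06, limma), the 217th highest of 38392 genes. Within the marrow the highest value was in BM_5, the library in which the eosinophil marker share was also highest at 0.0372%. BM_5 also had reads in more genes than the other marrow libraries, 30886 against 19713 to 24592. Between the tissues, the eosinophil markers took 0.0210 to 0.0372% of the reads in the marrow and 0.209 to 0.260% in the intestine. Of these 9 markers 3 were higher in the intestine, 5 lower and 1 not called. The neutrophil precursor markers took 3.88 to 4.60% in the marrow and 0.00520 to 0.00719% in the intestine. A link of any of these values to Il5ra was not tested.

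Il3ra encodes the alpha chain for IL-3, a cytokine of mast cells, basophils and early myeloid cells as well as eosinophils. The gene lies at chr14:14346275-14356011 on the plus strand. Normalised counts were 48.3, 31.3, 26.8 and 33.5 in BM_1, BM_3, BM_4 and BM_5, and 80.8, 90.1, 125.8 and 94.8 in SI_6, SI_7, SI_10 and SI_11. The groups did not overlap, but the gap between the highest marrow library and the lowest intestinal library was narrow. The difference was 1.40 ± 0.24 (adjusted p = 0.00191, limma), with a ratio of means of 2.80. It was 0.50 and not called when libraries were centred on the median of all genes (adjusted p = 0.399).

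Csf2ra encodes the alpha chain for GM-CSF and lies at chr19:61223957-61228429 on the minus strand. Normalised counts were 3562, 3094, 2940 and 3603 in the bone marrow libraries and 4641, 6794, 5745 and 7933 in SI_6, SI_7, SI_10 and SI_11. It was the most abundant alpha chain in every library, and it had the smallest difference of the 7 genes. The ratio of means was 1.90 and the difference 0.90 ± 0.22 (adjusted p = 0.0123, limma). Centring on the median of all genes left a difference of 0.0046 (adjusted p = 0.994), and quantile normalisation one of 0.37 (adjusted p = 0.136); the call was lost under these scalings and kept under the other settings run.

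Csf2rb encodes the beta chain shared by the receptors for IL-5, IL-3 and GM-CSF, and Csf2rb2 the beta chain of the IL-3 receptor. The genes are neighbours that point away from each other, Csf2rb2 at chr15:78282507-78305721 on the minus strand and Csf2rb at chr15:78325752-78353847 on the plus strand, with 20030 bp between them. Csf2rb was at 2410, 2738, 2533 and 2546 normalised counts in the marrow and at 11440, 15054, 12316 and 13988 in SI_6, SI_7, SI_10 and SI_11. Each intestinal library was above 4 times the highest marrow library, and the difference was 2.36 ± 0.18 (ratio of means 5.16; adjusted p = 2.37e-05, limma). Csf2rb2 was at 136, 189, 164 and 185 in the marrow and at 5041, 6260, 5494 and 6328 in the intestine. The libraries of each tissue lay close together, and the difference was 5.08 ± 0.19 (ratio of means 34.3; adjusted p = 8.91e-07, limma), the 498th highest of all genes.

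The coding sequences of the beta chains were closely alike, with 2503 of 2628 aligned bases the same (95.2%). Of the 75-base windows of their transcripts, the length of a read, 518 occurred in both genes, which is 7.15% of the windows of Csf2rb and 10.6% of those of Csf2rb2. How reads matching both genes were counted is not given in the sources used here, so their separate values are uncertain by the reads in those windows. The stretches below show where the genes can and cannot be told apart: the window with the most differences, 14, given by its place in the coding sequence (bases 316 to 390 of Csf2rb and 319 to 393 of Csf2rb2) with the differing bases in capitals, and 1 of the 413 of 2258 windows with no difference (bases 485 to 559 of Csf2rb and 488 to 562 of Csf2rb2).
Csf2rb, most differences: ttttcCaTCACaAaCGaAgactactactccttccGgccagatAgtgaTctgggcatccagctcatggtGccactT
Csf2rb2, most differences: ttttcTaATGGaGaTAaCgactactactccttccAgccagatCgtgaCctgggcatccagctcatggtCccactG
Csf2rb and Csf2rb2, no difference: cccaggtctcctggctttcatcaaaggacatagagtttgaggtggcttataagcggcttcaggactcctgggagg

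The promoters of the genes with the largest rises and of the gene that fell are printed for comparison, since these are the members whose transcript levels moved furthest in each direction. RefSeq promoters of GRCm38.p6, from 250 bases before to 50 bases after the transcript start, were found for 5 of the 7 genes. Letters of 5 motifs were searched on both strands: AGATAA for GATA factors, TTCNNNGAA for STAT factors, TGANTCA for AP-1, GAGGAA for PU.1 and TTGCNNAA for C/EBP factors. Of 32851 promoters of 300 bases, 11.2% held the GATA letters, 8.3% the STAT letters, 7.81% the AP-1 letters, 28.3% the PU.1 letters and 10.8% the C/EBP letters. Matches are in capitals below, and positions count from the start base as 0. In Il5ra (chr6:106748988-106749287, minus strand) the AP-1 letters began at -99, the GATA letters at -74 and the PU.1 letters at 41. In Csf2rb2 (chr15:78305672-78305971, minus strand) the STAT letters began at -15 and the PU.1 letters, on the other strand, at -167 and 29. In Csf3r (chr4:126024409-126024708, plus strand) the PU.1 letters began at -86. No matches overlapped, and a match of letters was not tested as a binding site.
Il5ra promoter: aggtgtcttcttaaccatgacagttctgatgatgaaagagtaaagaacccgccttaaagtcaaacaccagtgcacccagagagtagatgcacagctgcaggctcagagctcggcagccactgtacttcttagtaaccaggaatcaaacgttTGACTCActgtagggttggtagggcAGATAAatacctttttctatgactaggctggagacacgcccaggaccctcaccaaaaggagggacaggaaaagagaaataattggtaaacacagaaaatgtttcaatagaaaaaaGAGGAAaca
Csf2rb2 promoter: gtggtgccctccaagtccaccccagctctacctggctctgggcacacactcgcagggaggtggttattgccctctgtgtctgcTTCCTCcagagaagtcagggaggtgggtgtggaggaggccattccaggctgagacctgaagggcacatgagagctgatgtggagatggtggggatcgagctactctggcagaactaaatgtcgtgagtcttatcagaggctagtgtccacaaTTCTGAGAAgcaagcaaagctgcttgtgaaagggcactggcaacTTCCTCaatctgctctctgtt
Csf3r promoter: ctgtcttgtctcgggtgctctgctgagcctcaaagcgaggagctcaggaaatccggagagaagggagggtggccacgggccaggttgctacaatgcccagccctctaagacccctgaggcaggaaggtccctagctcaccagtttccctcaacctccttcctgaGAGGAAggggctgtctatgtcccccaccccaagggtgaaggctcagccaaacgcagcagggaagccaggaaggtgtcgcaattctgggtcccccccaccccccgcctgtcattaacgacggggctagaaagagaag

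Csf3r, the G-CSF receptor, was the gene that fell. It lies at chr4:126024550-126044440 on the plus strand. Its normalised counts were 4413, 4654, 4388 and 3838 in BM_1, BM_3, BM_4 and BM_5, and 565, 668, 669 and 837 in SI_6, SI_7, SI_10 and SI_11. The marrow libraries were all above the intestinal ones, with a ratio of means of bone marrow over small intestine of 6.31. The difference was -2.66 ± 0.19 (adjusted p = 1.9e-05, limma), the 727th largest fall. The neutrophil precursor markers moved with it: their summed normalised counts were 495500 to 638600 in the marrow and 809 to 1094 in the small intestine, and their part in the result was not tested. Of the 75-base windows of Csf3r, 3.13% also occurred in other genes.

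**Figure D3:**
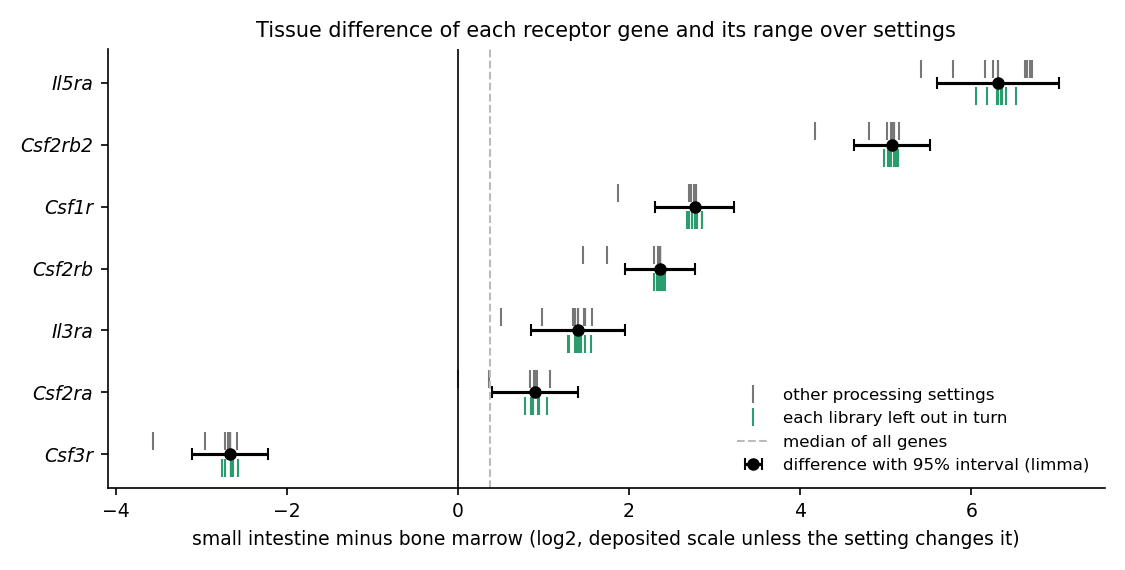
Tissue difference of each receptor gene (small intestine minus bone marrow, log2) with its 95% interval (black), the values with each library left out (green) and under the other processing settings (grey); the dashed line is the median of all genes at 0.37. The values for Csf2ra and Il3ra reach down to 0.0046 and 0.50, and those of Csf3r stay below -2.57.

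Csf1r, the M-CSF receptor, was at 161, 222, 222 and 155 normalised counts in BM_1, BM_3, BM_4 and BM_5, and at 1280, 1229, 1290 and 1405 in SI_6, SI_7, SI_10 and SI_11. The intestinal libraries were all above the marrow ones and lay close together. The difference was 2.77 ± 0.20 (ratio of means 6.84; adjusted p = 1.9e-05, limma). The gene lies at chr18:61100598-61132149 on the plus strand. Its exons share 873 bp (15.1%) with Hmgxb3 on the opposite strand, and 13.9% of its 75-base windows also occurred there; since the strand setting of the counting is not given in the sources used here, reads of the overlap cannot be assigned to one gene. The monocyte, macrophage and dendritic markers took 0.0584 to 0.0764% of the reads in the marrow and 0.0150 to 0.0714% in the intestine, with Ly6c2 the most abundant in the marrow and Cd74 and H2-Aa in the intestine by normalised count. Their part in the result for Csf1r was not tested.

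Levels were compared between genes per kilobase of exon (normalised count divided by the union of the exons). In bone marrow the order was Csf3r (1198 ± 95.6, SD, n = 4) and Csf2ra (1149 ± 116), whose libraries overlapped, then Csf2rb (351 ± 18.6), then Csf2rb2 (35.5 ± 5.17) and Csf1r (32.9 ± 6.42), which overlapped, then Il3ra (11.8 ± 3.13) and Il5ra (3.09 ± 1.49). In the small intestine the order was Csf2ra (2187 ± 491) and Csf2rb (1814 ± 224), which overlapped, then Csf2rb2 (1220 ± 131), Il5ra (309.6 ± 62.2), Csf1r (225 ± 12.8) and Csf3r (190 ± 31.1), the last pair overlapping, and Il3ra (33.0 ± 6.57). Il5ra was thus last of the 7 in the marrow. In the intestine it ranked next after the beta chains, at 309.6 against 1220 for Csf2rb2. Csf3r went from the top of the order to the lower end. The order depends on the length used: with the longest transcript, Csf2ra (1449) stood above Csf3r (1242) and Csf1r (40.4) above Csf2rb2 (35.5) in the marrow.

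The receptors for IL-5, IL-3 and GM-CSF are assembled from 1 kind of alpha chain and a beta chain. The chains were therefore also compared within each library, which is free of the scaling between libraries. Such a ratio does not show that the chains lay in the same cells, since the libraries also held reads of markers of other cell types. The summed alpha chains were at 1164 ± 119 per kb in bone marrow and 2529 ± 547 in the small intestine, a ratio of 2.17. The summed beta chains were at 387 ± 23.2 and 3033 ± 350, a ratio of 7.84. Beta over alpha was 0.286 to 0.381 in the marrow libraries (geometric mean 0.333) and 1.02 to 1.39 in the intestine (1.21), a change of 1.87 on the log2 scale. With both beta chains summed, the alpha chain transcripts exceeded the beta chain transcripts in all marrow libraries. The summed beta chains exceeded the alpha chains in all intestinal ones. With the protein-coding length in place of the exon length, the geometric means of this ratio were 0.354 and 1.13. The lowest intestinal ratio was then 0.947. The crossing in the intestine rests on counting Csf2rb2. Csf2rb alone was at 1814 ± 224 per kb there, below the summed alpha chains at 2529 ± 547. Over the settings run, the change of beta over alpha was 1.26 to 1.95 on the log2 scale.

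Il5ra over Csf2ra went from 0.00131 to 0.00394 in the marrow to 0.120 to 0.155 in the intestine, a change of 5.87 on the log2 scale. Il5ra over Il3ra went from a geometric mean of 0.243 in the marrow to 9.38 in the intestine, a change of 5.27. Il3ra over Csf2ra was 0.00882 to 0.0131 and 0.0116 to 0.0212, groups that overlapped, and its change of 0.60 did not pass the test. Csf2rb2 over Csf2rb went from 10.03% to 67.3%, a change of 2.75; with the longest transcript as the length these levels were 6.76% and 45.3%, and the change between tissues does not depend on the length. An exact 2-sided permutation test was run for each ratio on the 70 ways to divide the libraries by tissue; adjusted over the 5 ratios by Benjamini-Hochberg, p was 0.0357 for every ratio but Il3ra over Csf2ra (0.0857); 0.0286 is the smallest unadjusted p this design allows.

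**Figure D4:**
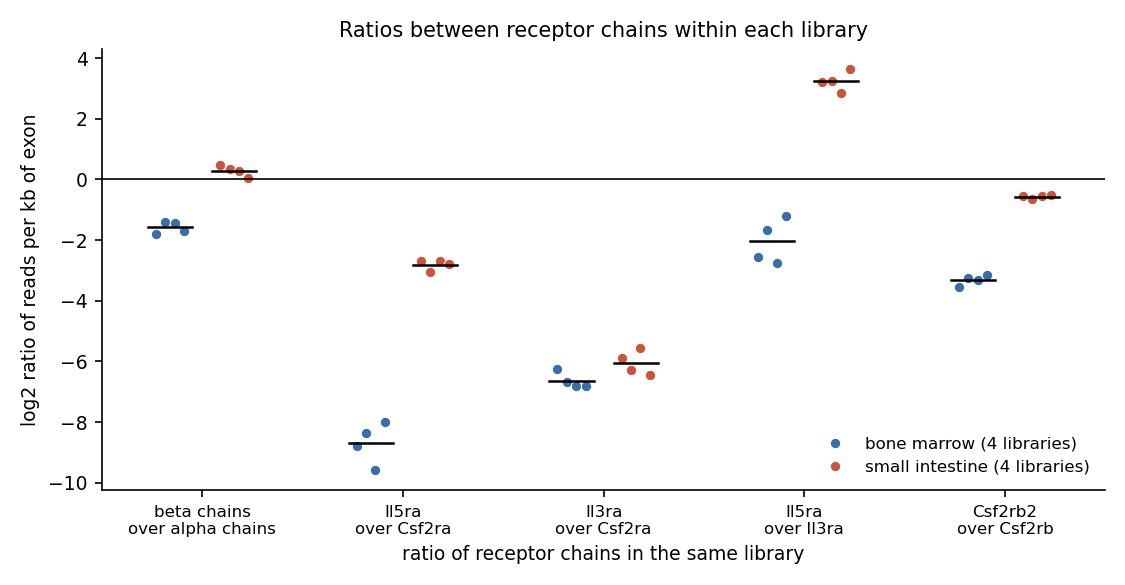
Log2 ratio of reads per kilobase of exon between receptor chains in the same library, for 4 bone marrow (blue) and 4 small intestine (red) libraries, with bars at the group means and a line at equal levels. The groups overlap for Il3ra over Csf2ra, and beta over alpha changes from -1.59 to 0.28.

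As shares of the alpha chain transcripts, Il5ra made up 0.129 to 0.389% in bone marrow and 10.6 to 13.2% in the small intestine. Csf2ra made up 98.7 ± 0.21% and 86.3 ± 1.42% (SD, n = 4), and Il3ra 1.005 ± 0.20% and 1.34 ± 0.36%. GM-CSF receptor alpha transcripts were thus the majority in every library of both tissues. Csf2rb2 made up 7.95 to 10.04% of the beta chain transcripts in the marrow and 39.0 to 41.0% in the intestine.

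The genes around these receptors were read from 4 lists with 46 genes in all: ligands, proximal signalling, feedback inhibitors and target genes. Of these 27 were higher in the small intestine, 7 lower and 12 not called. Among all 38392 genes, 22.0% were called higher and 12.9% lower. In the fit of the 16215 genes that averaged 10 reads or more, 6362 were higher and 5462 lower. With libraries centred on the median of all genes, 14 of the 46 were higher. Of all genes, 4285 were then higher and 10216 lower. Whether the counts of these lists, or of the lists that follow, exceed this background was not tested. The dissociation response genes, listed from knowledge of enzymatic tissue digestion, took 0.00405 to 0.00583% of the reads in bone marrow and 0.396 to 0.499% in the small intestine; their part in the differences of signalling and target genes was not tested.

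Of the 6 ligands, 4 were called higher and none lower, with a median difference of 1.41, but only Csf1 had a mean of at least 10 reads. Csf1, which encodes M-CSF, was at 57.5, 27.4, 53.6 and 58.6 normalised counts in the marrow and at 1481, 1700, 1602 and 1670 in the intestine, with a difference of 4.98 ± 0.26 (adjusted p = 3.66e-06, limma). Csf1 and its receptor Csf1r were both higher in the small intestine. Il34, the other ligand of Csf1r, had 0 reads in all marrow libraries and 8, 2, 2 and 7 in the intestine, in the order SI_6, SI_7, SI_10 and SI_11. Csf2, which encodes GM-CSF, had 0, 1, 0 and 0 reads in the marrow and 2, 1, 4 and 4 in the intestine. Il5 had 0, 0, 0 and 2 reads in the marrow and 4, 1, 6 and 1 in the intestine. Il34, Csf2 and Il5 passed the adjusted p-value (0.000916, 0.00466 and 0.0394, limma), but at so few reads the size of a difference is not given. The trial of the test on simulated data set no limit on false calls at such depths. Il3 (0 to 2 reads in every library) and Csf3, which encodes G-CSF (0 to 9 reads in the marrow and 2 to 10 in the intestine), were not called.

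Of 20 proximal signalling genes 11 were higher and 4 lower, with a median difference of 1.12. The largest rise was that of Syk, a cytoplasmic tyrosine kinase, which was at 2467 ± 171 normalised counts in the marrow and 21052 ± 3286 in the intestine (SD, n = 4 each), a difference of 3.08 ± 0.19 (adjusted p = 9.21e-06, limma). Syk and Sdcbp, an adaptor that binds the IL-5 receptor alpha chain, had the highest mean levels per kb of the list over the 8 libraries. Sdcbp was at 4370 ± 339 and 16993 ± 1975, a difference of 1.95. The difference of Sdcbp went down to 1.05 over the settings run, and its adjusted p up to 0.0620 (limma). The largest fall was that of Ptpn11, the phosphatase SHP2 (-0.88 ± 0.17; adjusted p = 0.00336, limma).

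Of 10 feedback inhibitors 6 were higher and 1 lower, with a median difference of 0.90. The SOCS family, whose members are induced by STAT factors and restrain JAK signalling, held the largest rises. Socs2 was at 2.30, 2.61, 6.70 and 14.9 normalised counts in the marrow and at 2047, 3040, 3525 and 4038 in the intestine, a difference of 8.45 ± 0.42 (adjusted p = 2.84e-06, limma). Cish was at 12.3, 20.2, 7.66 and 15.8 and at 937, 1424, 1636 and 1798, a difference of 6.38 ± 0.31 (adjusted p = 2.49e-06, limma). Socs3 had 1, 4, 1 and 3 reads in the marrow and 146, 125, 151 and 158 in the intestine (adjusted p = 1.8e-06, limma). Socs1 had 3 to 10 reads in the marrow and 3 to 6 in the intestine and was not called. Ptpn6, the phosphatase SHP1, and Inpp5d, the phosphatase SHIP1, were among the inhibitors with the highest mean levels per kb over the 8 libraries. Ptpn6 was at 1892 ± 188 and 1667 ± 220 and not called (adjusted p = 0.476, limma). Inpp5d was at 1613 ± 242 and 4498 ± 437, a difference of 1.48 ± 0.19. The difference of Inpp5d went down to 0.58 over the settings run, and its adjusted p up to 0.326 (limma). Dok1, an adaptor that dampens Ras signalling, was the gene that fell (-0.83 ± 0.24; adjusted p = 0.0289, limma), a call that was lost in 5 of the 8 fits with 1 library left out (BM_1, BM_4, SI_6, SI_7 or SI_10), where the adjusted p was 0.0537 to 0.0784.

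Of 10 target genes 6 were higher and 2 lower, with a median difference of 1.39. Pim1, a survival kinase and classical STAT5 target, was at 213, 366, 308 and 387 normalised counts in the marrow and at 14118, 18559, 22498 and 28807 in the intestine. All intestinal libraries were far above the marrow, and the difference was 6.01 ± 0.29 (adjusted p = 2.53e-06, limma). Osm, the cytokine oncostatin M, was at 30.9 ± 12.6 and 657 ± 232, a difference of 4.26 ± 0.35. Mcl1, a BCL2 family survival protein, was at 2125 ± 179 and 18420 ± 2791, a difference of 3.10. The falls were those of Myc (2647 ± 251 and 645 ± 120; -2.05 ± 0.21), a transcription factor of growth, and Ccnd3, cyclin D3 (1816 ± 81.3 and 902 ± 199; -1.03 ± 0.21).

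**Figure D5:**
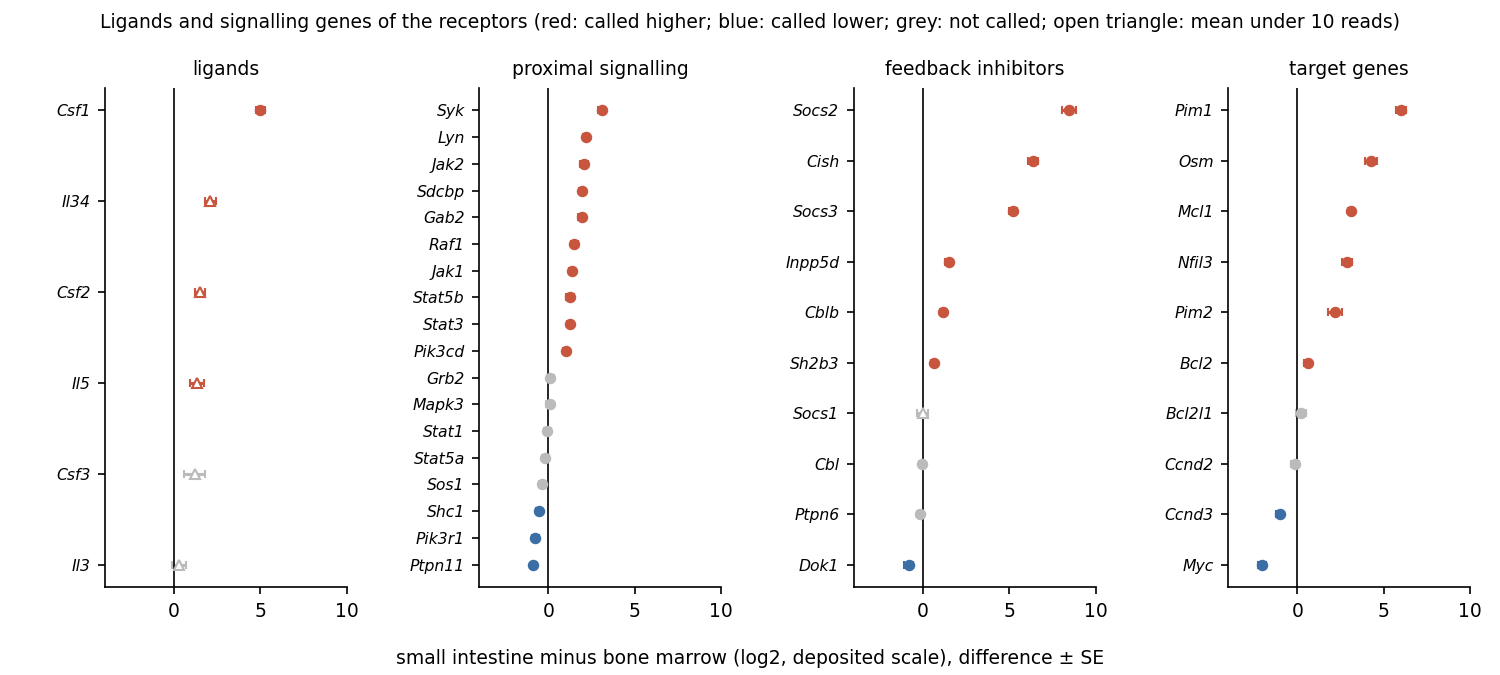
Tissue difference (small intestine minus bone marrow, log2) with SE for genes of the 4 lists; red genes were called higher, blue genes lower and grey genes were not called, and open triangles have a mean under 10 reads. Socs2 has the highest difference at 8.45, and Myc lies lowest at -2.05.

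Of 22 other class I cytokine receptors 12 were higher and 4 lower, with a median difference of 1.24. Il13ra1, a chain of the IL-4 and IL-13 receptor, was at 4.38 ± 3.20 normalised counts in the marrow and 579 ± 47.1 in the intestine, a difference of 6.55 ± 0.51 (adjusted p = 2.87e-05, limma). Lepr, the leptin receptor, had 0, 7, 0 and 28 reads in the marrow, the most in BM_5, and 112, 67, 84 and 64 in the intestine (adjusted p = 0.00434, limma). Il2rg, the common gamma chain, and Il4ra had the highest mean levels per kb over the 8 libraries and were higher by 2.22 and 1.28. The difference of Il4ra went down to 0.38 over the settings run, and its adjusted p up to 0.533 (limma). The largest falls were those of Il21r (-3.20 ± 0.29) and Il6ra (-2.60 ± 0.22), the receptors for interleukin 21 and interleukin 6.

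Of the 4 other type III receptor tyrosine kinases, the family of Csf1r, 2 were higher and 1 lower, with a median difference of 0.74. Kit, the stem cell factor receptor, was at 3031 ± 430 in the marrow and 1189 ± 573 in the intestine, a difference of -1.48 ± 0.38 (adjusted p = 0.0152, limma), which was not called without SI_7 (-1.41; adjusted p = 0.051). Pdgfra (0 to 17 reads in the marrow, 14 to 42 in the intestine) passed at an adjusted p of 0.0161 (limma), and was not called without SI_6, SI_7 or SI_10 (adjusted p 0.0587 to 0.0684). Pdgfrb was at 20.1 ± 5.85 and 34.4 ± 6.09 and passed at an adjusted p of 0.0494 (limma), but its libraries overlapped, its call was lost in 6 of the 8 fits that left out 1 library, and its sign flipped with median-centring over all genes (-0.20) and with quantile normalisation (-0.077). Of 9 lineage factors 6 were higher and 2 lower, with a median difference of 1.02. Cebpb rose from 29.5 ± 9.62 to 737 ± 237 (4.47 ± 0.33) and Gata2 from 34.3 ± 8.0 to 842 ± 201 (4.47 ± 0.26). Cebpa (-3.47 ± 0.36) and Cebpe (-1.71 ± 0.19), factors of granulocyte development, fell. Spi1, which encodes PU.1, was at 3157 ± 325 and 6444 ± 916, a difference of 1.02. This difference went down to 0.12 over the settings run, and its adjusted p up to 0.853 (limma).

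For each receptor gene, the protein-coding genes with the closest profile over the 8 libraries were found by the root mean square difference of the centred log2 values, among 12869 candidates with a mean of at least 10 reads. Closest to Il5ra were Camk1d (0.216), Cish (0.247) and Prkca (0.265), and closest to Csf2rb2 were Cd244a (0.141), Socs3 (0.162) and Emid1 (0.172). Closest to Csf2rb were Lrrfip1 (0.068), Mafk (0.088) and Ski (0.0918). Closest to Il3ra were Rmdn2 (0.120), Kdm4a (0.141) and Cd1d1 (0.153), and closest to Csf2ra were Dcun1d1 (0.120), Cenpl (0.121) and Gabarapl2 (0.122). Closest to Csf3r were Cpne2 (0.0652), Map4k1 (0.0789) and Nxn (0.101), and among those closest to Csf1r were Mboat1 (0.141) and Pde1b (0.163). With 4 libraries per tissue these likenesses rest mainly on the tissue difference itself.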

How the data were processed

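RNA was measured in 8 libraries, 4 per tissue from cells sorted as eosinophils. The authors aligned reads to GRCm38 and counted them per gene with the nf-core/rnaseq pipeline, and transformed the counts with DESeq2 under R 4.0.3, per the labels and the study methods; the deposited values are on this variance-stabilised log2 scale. Which aligner and strand setting the pipeline used, and how it counted multi-mapping reads, is not given in the sources used here. The transformation was inverted from the lowest value shared by all libraries, and 100% of the values came out as whole reads within 0.05; normalised counts are these reads divided by the size factor (0.721 to 1.53). Since the unit is log2, limma 3.58.1 (R 4.3.3, constant prior, no covariate, no filter, 2-sided, Benjamini-Hochberg over 38392 genes) took the place of the authors' count model. The test was tried on simulated data. Its rate of false calls was required to hold only for genes with a mean normalised count of at least 10. Chain ratios were compared by exact permutation. Coordinates are those of the GENCODE annotation of GRCm38. Other steps ran under scipy 1.17.1, Biopython 1.88, matplotlib 3.10.9, pandas 2.3.3 and numpy 2.4.6 in Python 3.11.15. Samples were grouped by tissue from the labels, and p-values measure the spread between these libraries only. The 7 genes are described in full; from each list the 2 largest rises, the 2 largest falls and the 2 most abundant genes per kb over the 8 libraries are named, with all ligands and SOCS genes; 3 genes that this rule or the profile search named are not reported here. Mcl1 is also the second most abundant target gene. The 3 genes of closest profile to each member leave out predicted and clone-based symbols. The members and lists were chosen with earlier results of these data known. Alternatives were voom on the recovered reads, an intensity trend, other centring, quantile normalisation, pseudocounts of 1 and 5, a minimum mean of 10 reads, other transcript lengths and leaving out libraries.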

Additional observations from a re-analysis of the deposited data

Results flagged for a closer look

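Of 86 groups of 4 libraries examined, 1 held a library that stood apart from the other 3. Csf1 in bone marrow was at 27.4 normalised counts in BM_3, against 53.6 to 58.6 in the other libraries, and on the deposited log2 scale the gap between it and the next library was 0.88 of the group's range. Chance sets apart about 1 in 20 groups, here 4.3.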

How the results depend on the processing

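Of 119 tested values of the 7 receptor genes under other settings, 116 kept their direction and call and none reversed. Centring on the median of all genes ended the calls of Il3ra (0.50) and Csf2ra (0.0046) and left 14 pathway genes higher (of all genes, 4285 higher and 10216 lower against 8465 and 4937 as deposited), and quantile normalisation ended that of Csf2ra (0.37). Without Csf1r, Csf2rb and Csf2rb2, the genes with the largest shares of sequence in common with other genes, 3 receptor genes were higher. The removed genes were all called higher, so this count was fixed in advance and cannot test the shared reads. This setting was chosen after seeing the data. Of 526 tested values of the 31 other genes chosen by the naming rule, 498 kept direction and call; Pdgfrb reversed with median-centring (-0.20) and quantile normalisation (-0.077). With 1 library left out, Il5ra ranged from 6.06 to 6.52 and Csf3r from -2.76 to -2.57, and no receptor gene lost its call (highest adjusted p 0.0373, Csf2ra, limma). No paired analysis was possible because the labels number the mice of the tissues separately. Depth limits Il5ra in the marrow and most ligands, which rest on few reads.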
